A study of Mus musculus with 25 samples.

Results

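The 2 miRNA genes of the imprinted H19 and Igf2 region, Mir675 and Mir483, were followed in small extracellular vesicles from mouse liver through 4 mature arms: mmu-miR-483-5p, mmu-miR-483-3p, mmu-miR-675-3p and mmu-miR-675-5p (the species prefix is left out from here on). The 4 arms are all the rows of these 2 genes in the deposited table, which lists 1493 entries, 1095 of them named mouse miRNAs. They were taken by name, with earlier results of these data known. Of the arms 3, all but miR-675-5p, passed the filter on low counts and were tested. The mice were wild-type C57BL/6J aged 1 week, 6 weeks, 6 months, 12 months or 14 months, with 5 mice and 1 library per mouse at each age, 25 libraries in all. No mouse carried a transgene or received a treatment per the labels. Males and females were equally represented per the labels, which cannot hold exactly with 5 mice at an age. The sex of each mouse is not given there, so the balance of the sexes at each age is not known. The batch field of the labels repeats the age, so handling that differed between ages and age itself cannot be told apart.

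H19 and Igf2 are neighbouring imprinted genes under shared enhancers: H19, a long noncoding RNA, is expressed from the maternal chromosome, and Igf2, which encodes a fetal growth factor, from the paternal one. Both are highly active in fetal liver and are shut down in mouse liver after birth, H19 with the help of the repressor Zhx2. Cleavage of H19 RNA releases miR-675, known in placenta to restrain growth and to target the receptor Igf1r. Mir483 is carried within Igf2, and miR-483-3p is known for its high level in Wilms tumours, where it represses the cell death gene Bbc3 (Puma).

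The precursors and their arms are shown because every value below is a count of one of these short RNAs. In the 2 hairpins, given 5′ to 3′ from RefSeq on GRCm38 (the assembly that mm10 names), capitals mark the mature arms, the 5p arm first.
Mir483, chromosome 7, 142654924 to 142654996, minus strand: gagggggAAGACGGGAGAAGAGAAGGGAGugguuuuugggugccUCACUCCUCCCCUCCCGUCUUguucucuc
Mir675, chromosome 7, 142577064 to 142577147, minus strand: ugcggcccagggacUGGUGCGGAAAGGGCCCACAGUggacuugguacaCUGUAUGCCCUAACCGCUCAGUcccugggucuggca

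In the mature arms, capitals mark the seed, bases 2 to 8 from the 5′ end, by which a miRNA pairs with its targets.
miR-483-5p: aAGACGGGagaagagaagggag
miR-483-3p: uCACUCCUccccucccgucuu
miR-675-3p: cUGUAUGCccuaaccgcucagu
miR-675-5p: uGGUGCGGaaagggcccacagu

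The 4 seeds differ from each other, and none was shared by another of the 924 named miRNAs of the table that matched a RefSeq mature sequence by name. The arms of Mir483 differ sharply in composition: miR-483-5p is 95.5% purine (A or G) and miR-483-3p, its partner in the hairpin, 9.52%. The arms of Mir675 are 36.4% (3p) and 63.6% (5p) purine. The deposited length of each arm equals that of its RefSeq sequence.

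Both precursors lie on the minus strand, with 77776 bases between them. In the GENCODE M21 annotation Mir483 lies in an intron of 7 of 9 Igf2 transcripts and outside the other 2: in intron 2 of 6 protein-coding transcripts and in intron 1 of Igf2-209. Mir675 lies in an exon of 3 of 7 H19 transcripts, in an intron of 1 and outside the other 3. In H19-202 and H19-205 the exon is exon 1.

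**Figure D1:**
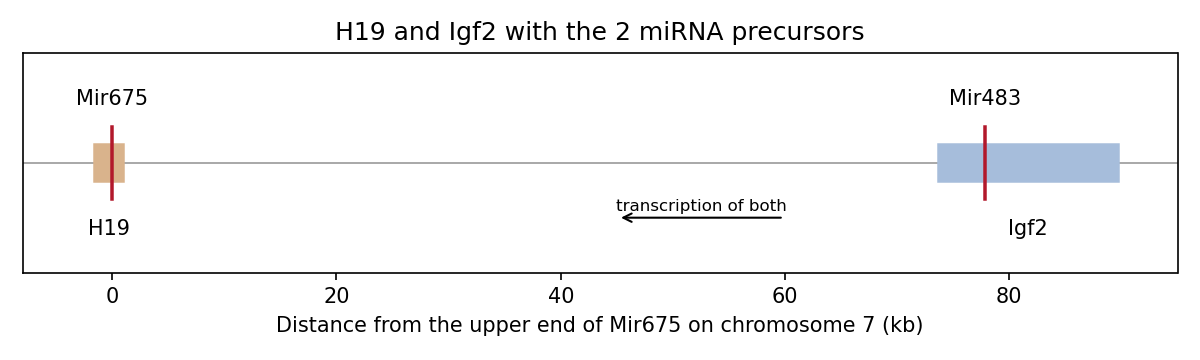
Map of the region on chromosome 7 of mm10, with distance from the upper end of Mir675 in kb on the horizontal axis. Boxes are the H19 and Igf2 genes to scale, red lines mark the 2 precursors and are wider than scale, and the arrow gives the shared direction of transcription. Mir483 lies 77.8 kb from Mir675, inside Igf2.

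Library totals ran from 641579 counts (mouse 7, 6 weeks) to 6888928 (mouse 27, 1 week). Levels are given in CPM, counts scaled to one common library size, after TMM scaling (a correction for differences in composition between libraries). The TMM factors were 1.30 to 1.79 at 1 week and 0.719 to 1.08 in adults, so CPM at 1 week are lower than the share of raw counts. A library without a count of an arm lies below a floor of 3 counts, from 0.283 CPM in mouse 27 to 4.90 CPM in mouse 7. Neither the intervals nor these floors include the spread between mice. The labels give 1 mouse per library. Among 50 pairs of libraries of the same age 0 were identical, and the lowest chi-square per degree of freedom was 16.3.

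The Igf2-hosted miR-483-5p had the highest counted level of the arms at 1 week, at 1456 ± 437 CPM (SD, n = 5). This placed it 35th of the 811 named miRNAs with a count at that age. Its level was 979 CPM in mouse 1, 1395 in mouse 3, 2045 in mouse 4, 1734 in mouse 5 and 1129 in mouse 27. At 6 weeks it was at 0 in mouse 6, 1.63 CPM in mouse 7, 4.84 in mouse 8, 0.886 in mouse 9 and 19.6 in mouse 10. The ages do not overlap: the lowest 1-week library was 42.5 times the highest of all 20 adult libraries. In edgeR's quasi-likelihood test the log2 fold change from 1 week to 6 weeks was -7.77 ± 0.93 (SE, Benjamini-Hochberg adjusted p = 8.65e-08).

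As a share of raw counts, miR-483-5p held 0.223% ± 0.0564 at 1 week (n = 5), between 0.166% and 0.303%. At 6 weeks it held 0.000528% ± 0.000788, with a highest value of 0.00190%. The separation is thus present with library totals alone, without TMM factors.

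**Figure D2:**
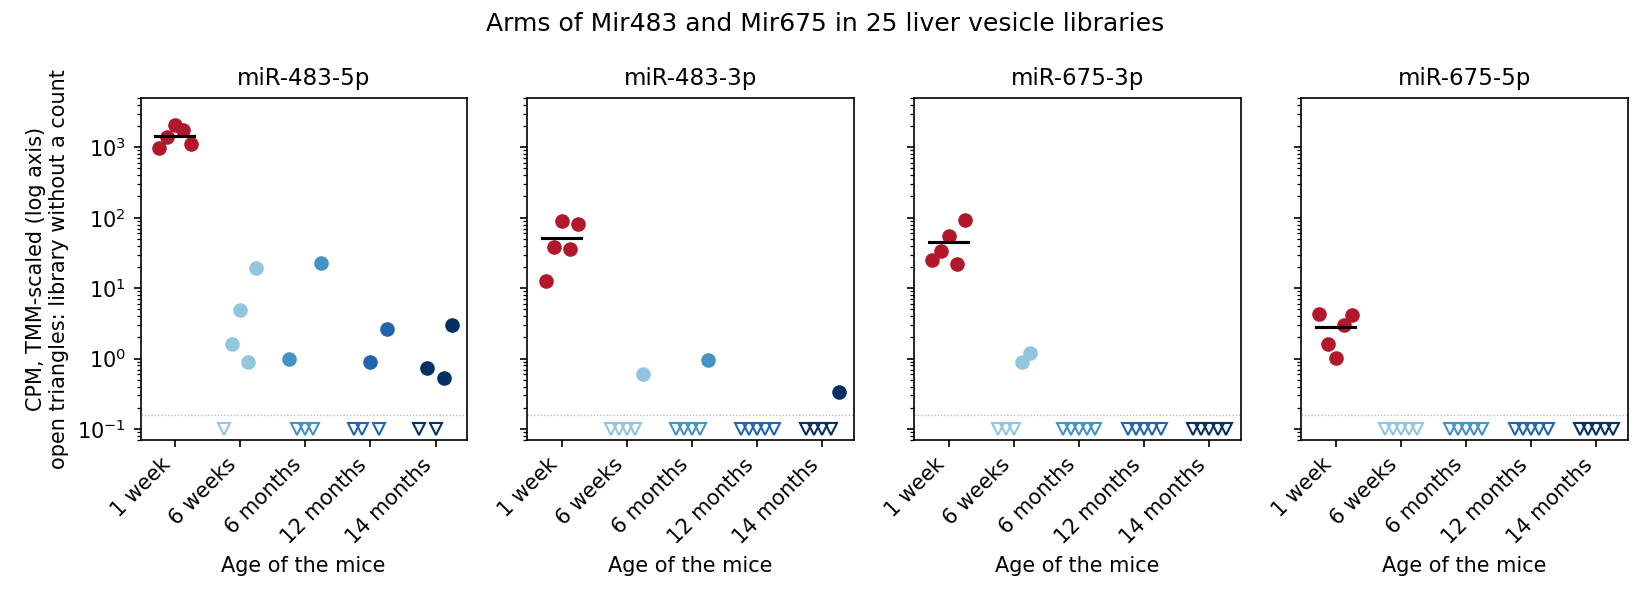
Level of each arm in every library in CPM on a log axis, by age. Filled points are libraries with a count, open triangles libraries without one, drawn at a fixed position below the dotted line, and black bars the mean of the 5 libraries at 1 week. All 5 1-week libraries had counts of all 4 arms and lie above every adult library in the panels of the 3 tested arms. The panel of miR-675-5p has no adult count, at a depth that could miss its 1-week level.

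The partner arm miR-483-3p was also found in every 1-week library, at 51.1 ± 32.3 CPM (n = 5). Its values were 12.5 CPM in mouse 1, 37.99 in mouse 3, 88.9 in mouse 4, 35.8 in mouse 5 and 80.2 in mouse 27, which gives a coefficient of variation of 63.2% against 30.0% for miR-483-5p. In adults it was counted once each in mouse 10 (6 weeks), mouse 15 (6 months) and mouse 25 (14 months), and 17 of 20 adult libraries had no count. The log2 fold change at 6 weeks was -7.71 ± 0.80 in edgeR (adjusted p = 2.01e-08).

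The H19-hosted miR-675-3p had 45.5 ± 29.6 CPM at 1 week (n = 5), a level near that of miR-483-3p and rank 159 among named miRNAs. It stood at 24.7 CPM in mouse 1, 33.2 in mouse 3, 54.4 in mouse 4, 21.9 in mouse 5 and 93.4 in mouse 27. Adult libraries held 3 counts in all: 1 in mouse 9 and 2 in mouse 10, both aged 6 weeks. From 6 months on no library had a count of it. The log2 fold change at 6 weeks was -6.22 ± 0.72 in edgeR (adjusted p = 2.56e-06).

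The second arm of Mir675, miR-675-5p, was rare even at 1 week, with 2.83 ± 1.48 CPM (n = 5). It had 19 counts in mouse 1, 6 in mouse 3, 4 in mouse 4, 10 in mouse 5 and 44 in mouse 27, and 0 counts in the 20 adult libraries. Depth limits what this shows: at the lowest 1-week level, 1.03 CPM, the shallowest adult library would hold 0.631 counts and the deepest 3.16. For miR-483-5p the same reckoning gives 599.6 counts in the shallowest adult library, for miR-675-3p 13.4 and for miR-483-3p 7.64. Having failed the filter on low counts, miR-675-5p has no test in the fit used for the other arms. With all 1493 entries kept, its adjusted p at 6 weeks was 0.00170 in edgeR.

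The 3 tested arms were lower at 6 weeks, where 71.9% of all tested entries were called and 36.8% were called lower. Each arm passed the filter through its 1-week counts alone, so it could differ only downwards and the number of arms called carries no weight of its own. Of all 391 tested entries 25.3% had every 1-week library above every adult library, as these 3 arms did. Ranked from the lowest fold change upwards, miR-483-5p was entry 11, miR-483-3p entry 12 and miR-675-3p entry 20 of 391 at 6 weeks, against a median of 0.12 over all entries. In the test over all 5 ages, which called 75.4% of entries, the edgeR adjusted p was 1.06e-11 for miR-483-5p, 7.62e-12 for miR-483-3p and 1.26e-08 for miR-675-3p. In liver vesicles fewer vesicles from the cells that make these RNAs and less RNA in each vesicle cannot be told apart.

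The low level held at every later age. Against 1 week, the log2 fold change of miR-483-5p was -8.36 ± 0.96 at 6 months, -10.44 ± 1.08 at 12 months and -10.36 ± 1.07 at 14 months, with edgeR adjusted p of 4.25e-08, 7.33e-09 and 5.98e-09. The comparisons share the 1-week libraries and are not independent of each other. In them 74.7%, 71.6% and 72.9% of tested entries were called, and 37.9%, 38.4% and 37.3% were called lower. The other tested arms were lower too at the 3 later ages (edgeR adjusted p from 1.67e-09 to 5.29e-07). Their fitted values rest on 0 or 1 count in the adult group, so summed counts describe them better.

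From counts summed over each age, miR-483-5p was 175-fold higher at 1 week than at 6 weeks (95% interval from exact Clopper-Pearson limits, 129 to 245), 336-fold higher than at 6 months (227 to 519), 1271-fold higher than at 12 months (691 to 2652) and 1220.5-fold higher than at 14 months (682 to 2445). These intervals cover counting error and not the spread between mice. One library held most of each adult sum, and without it the ratio rose to 676 at 6 weeks (without mouse 10), 6982 at 6 months (without mouse 15), 4278 at 12 months (without mouse 20) and 4708 at 14 months (without mouse 25).

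For miR-483-3p, with 1 count at the age, the ratio was 301 at 6 weeks (54.0 to 11905), 361 at 6 months (64.6 to 14252) and 577 at 14 months (103 to 22798). Without the library that held the count (mouse 10, 15 or 25) it was at least 67.8-fold, 99.99-fold and 135-fold lower at these ages. It was at least 182-fold lower at 12 months, where no library had a count. For miR-675-3p, with 3 counts at 6 weeks, the ratio at that age was 100.1 (34.2 to 486), 203 without mouse 10 and 58.1 without mouse 27. The fall was at least 119.9-fold at 6 months, 182-fold at 12 months and 192-fold at 14 months, from a floor of 3 counts over the age. Without mouse 27, which held 990 of the 1506 counts of miR-675-3p at 1 week, these bounds were 69.5, 105.3 and 111. For miR-675-5p the bound was at least 5.52-fold at 6 weeks and 10.6-fold at 14 months.

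**Figure D3:**
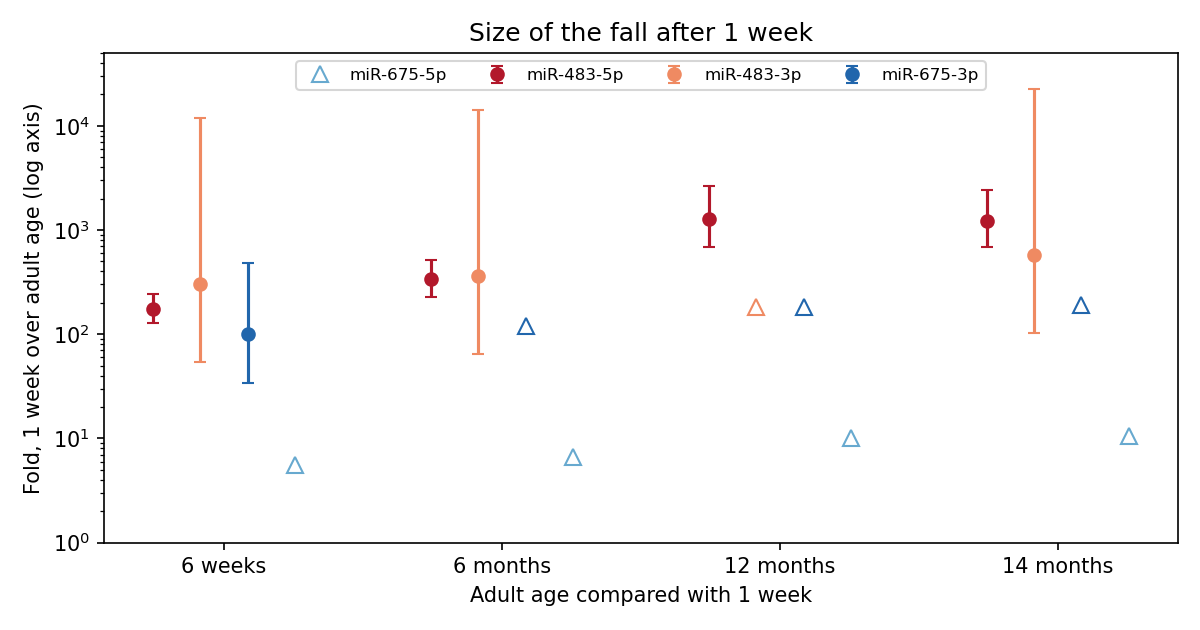
Level at 1 week over that at each adult age for the 4 arms, from counts summed over 5 libraries per age, on a log axis. Points are ratios with 95% exact counting intervals, and open triangles are lower bounds for ages without a count. Every ratio for miR-483-5p lies above 100, and the bounds of the rare miR-675-5p lie between 5.52 and 10.6.

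The share of each arm in the counts of a hairpin does not depend on the scaling of libraries, since both arms are counted in the same library. How far these shares reflect which arm is kept in cells was not tested. At 1 week the 5p arm made up 96.7% ± 2.12 of Mir483 counts (mean over libraries, n = 5). It was 98.7% (exact 95% Clopper-Pearson interval 98.4 to 99.1) in mouse 1, 97.3% (96.9 to 97.8) in mouse 3, 95.8% (95.4 to 96.3) in mouse 4, 98.0% (97.6 to 98.3) in mouse 5 and 93.4% (92.9 to 93.8) in mouse 27. Apart from those of mouse 3 and mouse 5, no 2 of these intervals overlap. They take each count as a separate molecule, which is not known here, and may be too narrow. In terms of the ratio, mouse 1 had 78.5 counts of the 5p arm for each of the 3p arm and mouse 27 had 14.1.

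In adults the 89 counts of Mir483 were 86 of the 5p arm and 3 of the 3p arm, a share of 96.6% (90.5 to 99.3), which covers the 1-week mean. Where most of these counts lay, in mouse 10 and mouse 15, the 5p share was 97.1% (84.7 to 99.9) of 34 counts and 96.0% (79.6 to 99.9) of 25 counts. A difference in arm share between 1 week and adults was not detectable at this depth.

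In Mir675 the opposite arm held most of the counts. The 3p arm made up 92.4% ± 5.63 of its counts at 1 week (n = 5), from 85.2% (77.8 to 90.8) in mouse 1 to 98.1% (95.3 to 99.5) in mouse 4. All 3 adult counts of Mir675 were of the 3p arm.

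**Figure D4:**
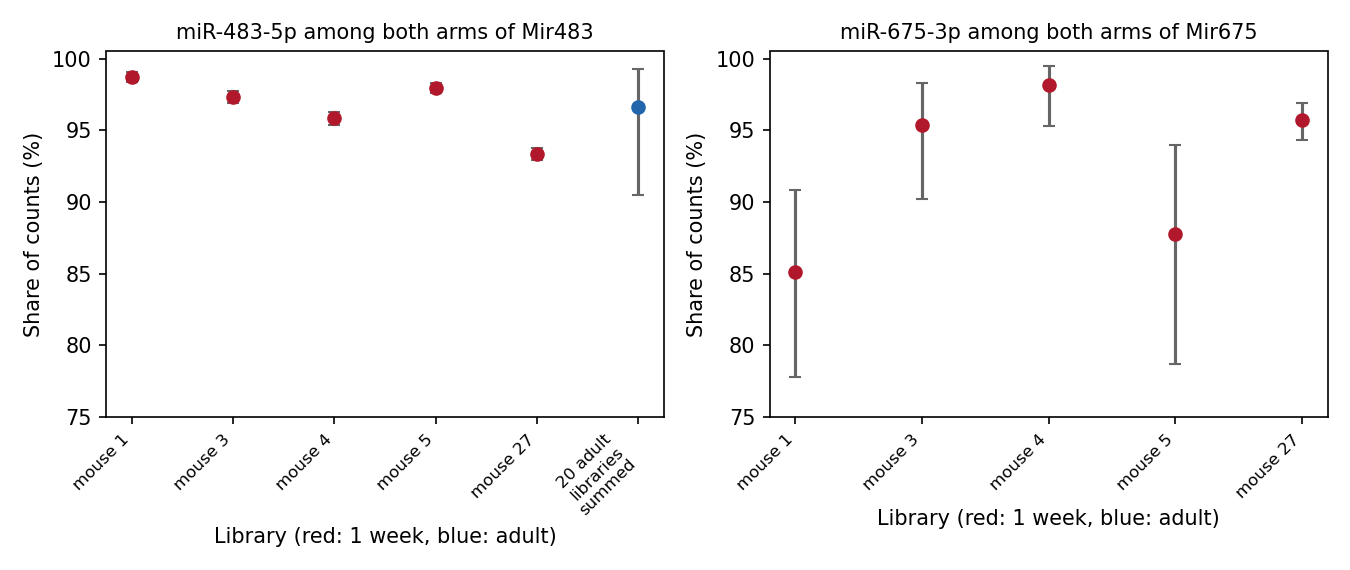
Share of the major arm in the counts of each precursor, in percent, with exact 95% Clopper-Pearson intervals. The vertical axis starts at 75%. For Mir483 the 5 1-week libraries lie between 93.4% and 98.7% and the 20 adult libraries, summed, at 96.6%. For Mir675 the 1-week libraries lie between 85.2% and 98.1%.

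The products of the 2 neighbouring genes did not keep a fixed proportion among the 5 1-week mice. For each 1000 counts of miR-483-5p there were 25.3 counts of miR-675-3p in mouse 1, 23.8 in mouse 3, 26.6 in mouse 4, 12.6 in mouse 5 and 82.7 in mouse 27. Mice 1, 3 and 4 thus lay close together, with mouse 5 below and mouse 27 above them. The log2 ratio averaged -5.17 ± 0.98 (SD, n = 5) and ran from -6.31 to -3.60. Mouse 27 had the highest miR-675-3p and the second lowest miR-483-5p of the 5.

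Residual miR-483-5p in adults was uneven. Of 20 adult libraries 11 had a count: 4 of 5 at 6 weeks, 2 of 5 at 6 months, 2 of 5 at 12 months and 3 of 5 at 14 months. At 6 months it stood at 0.982 CPM in mouse 11, at 23.1 in mouse 15 and at 0 in mice 12, 13 and 14. At 12 months it stood at 0.890 CPM in mouse 18, 2.61 in mouse 20 and 0 in mice 16, 17 and 19. At 14 months it was 0.727 CPM in mouse 22, 0.526 in mouse 24, 3.04 in mouse 25 and 0 in mice 21 and 23. The highest library of each adult age was thus mouse 10, 15, 20 or 25, with 33, 24, 8 and 9 counts. Mice 10, 20 and 25 had the largest library of their age and mouse 15 did not.

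**Figure D5:**
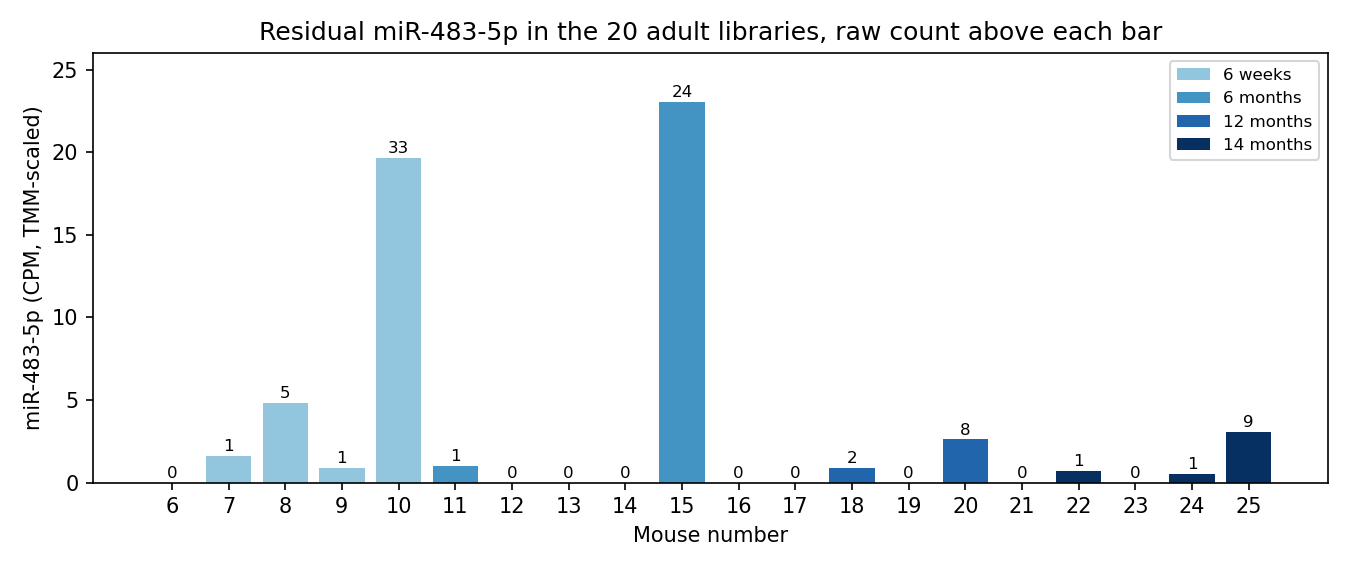
Level of miR-483-5p in CPM in each of the 20 adult libraries, with the raw count above each bar and colours by age. Mouse 10 at 19.6 CPM and mouse 15 at 23.1 CPM stand above all other adult libraries, none of which passes 4.84 CPM.

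Summed over each age, miR-483-5p came to 7.64 CPM of unscaled library totals at 6 weeks (exact 95% Poisson interval 5.46 to 10.4), 3.54 at 6 months (2.29 to 5.22), 0.918 at 12 months (0.440 to 1.69) and 0.895 at 14 months (0.447 to 1.60). The counting intervals of the 2 younger adult ages lie above those of the 2 older ones, but most of each sum was from 1 mouse. Without mouse 10 the 6-week value was 2.002, and without mouse 15 the 6-month value was 0.169. Without mouse 20 the 12-month value was 0.281, and without mouse 25 the 14-month value was 0.241.

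Over mice, adult ages could not be put in order. The edgeR test over the 4 adult ages, which called 2.56% of entries, gave an adjusted p of 0.356 for miR-483-5p, and 0.0474 without mouse 15. From 6 weeks to 14 months its log2 fold change was -2.59 ± 1.14 (unadjusted p = 0.0329, edgeR adjusted p = 0.199, 0.0726 to 0.726 over all alternatives), in a comparison that called 3.84% of entries. Without mouse 10 it was -0.86 and without mouse 25 it was -4.23. From 6 weeks to 6 months the value was -0.59 ± 1.01 (edgeR adjusted p = 0.947, with 1.79% of entries called), which turned to 1.12 without mouse 10 and became -4.74 without mouse 15. From 6 to 12 months it was -2.08 ± 1.25 (edgeR adjusted p = 0.738), which turned to 2.07 without mouse 15 and became -3.54 without mouse 20. From 12 to 14 months it was 0.077 ± 1.45 (edgeR adjusted p = 1), which turned to -1.63 without mouse 25 and became 1.60 without mouse 20. The other arms had at most 3 counts in any adult age, at or under the floor, so their fitted folds among adults are not given. In these comparisons miR-483-3p and miR-675-3p did not pass the edgeR test (lowest adjusted p = 0.201, unadjusted 0.0363, for miR-675-3p at 14 months against 6 weeks).

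Over all 25 libraries, the miRNAs whose log2 CPM followed miR-483-5p most closely were miR-323-3p (Pearson r = 0.971), miR-431-5p (0.967), miR-382-5p (0.964), miR-483-3p (0.958) and miR-329-3p (0.950). Besides its own partner arm these come from the imprinted Dlk1-Dio3 region, and miR-675-3p followed in 8th place (0.945). The correlations are mostly the contrast of 5 1-week libraries with 20 adult ones, and the libraries share depth and scaling, so they are given as a description. Within the 20 adult libraries r was 0.692, 0.650, 0.594, 0.842 and 0.469 for the 5 in the same order, and 0.426 for miR-675-3p. These adult values rest on few counts, with 0 to 33 of miR-483-5p per library.

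The other imprinted loci were represented by 18 miRNAs of the Gnas, Mest and Dlk1-Dio3 regions. Of the 15 tested, all 15 were lower at 6 weeks, against 36.8% of all tested entries, with a median log2 fold change of -5.14. As with the arms, a member without a count at 6 weeks, such as miR-370-3p, could only be called lower. The number called is thus partly fixed in advance and carries little weight of its own. The summed level of the list was 624 to 938 CPM at 6 weeks. The 3 most abundant of the list were miR-379-5p (-6.89 ± 0.63), miR-411-5p (-5.23 ± 0.55) and miR-335-5p of the Mest locus (-2.03 ± 0.18). Beside the -7.77 of miR-483-5p, 2 members of the list had lower fitted values, named here after their values were seen: miR-298-5p of the Gnas locus (-8.68) and miR-370-3p (-9.30), which had no count at 6 weeks, so that its value depends on the prior count. Differences in size between these miRNAs were not tested. Summed over the 18, the level at 1 week ran from 11477 CPM in mouse 1 to 30212 in mouse 27. Mouse 1 had the lowest miR-483-5p (979 CPM) and mouse 27 the second lowest (1129 CPM).

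The let-7 family is of interest here because H19 RNA carries let-7 binding sites and let-7 represses fetal growth genes. Of its 10 guide arms 8 were higher at 6 weeks, let-7i-5p was lower (-0.58) and miR-98-5p did not pass (0.26, edgeR adjusted p = 0.188). The share of all entries called higher was 35.0%. The most abundant, let-7a-5p, went from 7485 ± 947 to 20527 ± 1878 CPM, let-7f-5p from 5702 ± 1220 to 16595 ± 1439 and let-7c-5p from 4635 ± 648 to 10741 ± 1397 (n = 5 per age). With library totals alone 7 were higher and 2 lower, and with upper quartile factors 9 were higher and none lower.

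Most tested markers of muscle, blood, immune cells and epithelium were called lower at 6 weeks, as the arms were. The counts of each list are to be read against the 36.8% of all tested entries called lower and the 35.0% called higher. The skeletal and heart muscle list of 6 miRNAs, of which 2 were tested and both were lower at 6 weeks, summed to 61.4 to 1128 CPM at 1 week against 1.94 to 8.38 at 6 weeks and at most 13.4 in any adult library. At 6 weeks miR-133b-3p and miR-208b-3p were at 0. Mouse 27 had the highest muscle sum and the highest miR-675-3p of the 1-week mice, and mouse 5 the lowest of both. By contrast, miR-483-5p was second highest in mouse 5 and second lowest in mouse 27. Mouse 27 was extreme in other lists too. It was highest for the biliary, islet and other imprinted lists and lowest for the erythroid, endothelial, stellate and let-7 lists. A link between muscle and miR-675-3p was not tested. The erythroid list (4 of 5 lower) summed to 416 to 921 CPM at 1 week and 180 to 514 at 6 weeks, which overlap. Its most abundant member, miR-451a, was not called (-0.26, edgeR adjusted p = 0.509). Among its lower members miR-486a-5p and miR-486b-5p have identical values and are not separate markers. The biliary and other epithelial list (5 of 5 lower) summed to 846 to 1368 CPM at 1 week and 355 to 463 at 6 weeks. The immune list (4 of 5 lower, or 2 lower and 1 higher with upper quartile factors) summed to 4966 to 5592 CPM at 1 week and 2163 to 2839 at 6 weeks, without overlap. Later its calls were fewer: at 12 months 1 of 5 was lower and 1 higher than at 1 week. At 14 months 2 of 5 were lower. Its sum stayed below the 1-week range at 6 months (2152 to 3124 CPM) and at 14 months (2214 to 4100 CPM). At 12 months it ran from 2286 to 5100 CPM with a median of 3079. Only mouse 17, at 5100 CPM, then lay within the 1-week range. In each of these lists every member had a count at 1 week. The part of these cell types in the level of the arms was not tested. The islet and acinar list (1 of 2 lower) overlapped between the ages, at 143 to 662 and 309 to 356 CPM. Of the endothelial list 1 of 2 was higher (with library totals alone none higher and 1 lower) and of the stellate list 2 of 5 were, shares near that of all entries or resting on few members, and no nervous tissue marker was tested. The hepatocyte list, which checks the labelled tissue, was the most abundant, at 401973 CPM or more in each library, and 6 of 6 were higher at 6 weeks. With library totals alone, or with DESeq2, 4 of the 6 hepatocyte markers were called higher, and with library totals alone none of the stellate list was called higher and 3 of 5 lower.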

How the data were processed

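Raw counts per miRNA were deposited by the authors as 1 table of whole numbers, 1 column per mouse. Bowtie, edgeR and mm10 are named in the submitters' processing notes, without versions. The mismatches allowed, the miRNA annotation and whether molecular identifiers were collapsed are not given in the sources used here. Per the labels' protocols, vesicles were isolated with a tumour dissociation kit and ultracentrifugation, and QIAseq miRNA libraries were sequenced on an Illumina NovaSeq. The other deposited column is miRNA length in bases (another value, not a measurement).

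Counts were tested in edgeR 4.0.16 (R 4.3.3): filterByExpr by age (391 of 1493 entries kept, which include 52 without a miRNA name), TMM factors, and 1 robust quasi-likelihood model of all 25 libraries, adjusted by Benjamini-Hochberg over the 391 at 0.05. The SE of a fold change was obtained by dividing its size by the root of the F statistic. The fit was tested on simulated data with fold changes far smaller than those of the arms, so this does not bear on falls of their size. Alternatives used DESeq2 1.42.0 and limma 3.58.1. Intervals used scipy 1.17.1. Members, lists and tests were chosen with earlier results of these data known. Named were all arms of both genes, the 5 miRNAs most correlated with miR-483-5p (log2 CPM, prior count 2) and the 3 most abundant members of the pathway lists.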

Additional observations from a re-analysis of the deposited data

Results flagged for a closer look

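In 3 of 11 groups of 5 libraries checked, 1 library of miR-483-5p lay farther from the others than Dixon's 95% limit allows. For normally distributed values chance gives about 1 such group in 20. The 3 flagged groups hold low, skewed counts near the floor, for which that rate does not hold. At 6 weeks mouse 10 stood at 19.6 CPM with the next library at 4.84. At 6 months mouse 15 stood at 23.1 CPM with the next at 0.982. At 14 months mouse 25 stood at 3.04 CPM with the next at 0.727. In each of these 3 libraries the single adult count of miR-483-3p for that age was also found. What sets these mice apart was not tested.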

How the results depend on the processing

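No paired analysis was possible because no mouse number occurs at more than 1 age. The 15 tests of the 3 arms over 5 ages or against 1 week kept their call in all 527 results from 36 settings. The comparisons with 1 week also kept their direction, which the tests over 5 ages do not have. Each arm passed the filter through its 1-week counts alone, so this agreement was largely fixed in advance and carries little weight. The stricter filter (minimum count of 50) removed miR-483-3p and miR-675-3p. The log2 fold change of miR-483-5p at 6 weeks ran from -9.49 (without mouse 10) to -7.08 (library total as covariate). Other scalings moved the median of all entries at 6 weeks from 0.12 to -0.35 (DESeq2 size factors, 107 higher and 165 lower), -0.54 (library totals, 88 and 178) or 0.61 (upper quartile, 184 and 120), against 137 and 144 with TMM. The test of miR-483-5p over adult ages ran from an adjusted p of 0.0474 (without mouse 15) to 0.568 with 1 library left out. Calls over all entries fell from 281 to 171 at 6 weeks under the stricter filter, which tests fewer entries, and over all settings ran from 5 to 31 over the adult ages (10 in the report's fit), 1 to 13 for 6 months against 6 weeks (7) and 4 to 28 for 14 months against 6 weeks (15). With 0 to 33 counts per adult library, adult values are limited by depth.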

Other observations

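The highest miR-483-5p libraries of the 4 adult ages were mouse 10, mouse 15, mouse 20 and mouse 25. This was noticed in the data, so in the count that follows the match of miR-483-5p itself was fixed in advance. Of 391 tested entries 3 (0.767%) had their highest CPM in these same libraries: miR-483-5p, miR-101c and miR-30c-5p. For the last pair the margin over the next library was small, 1.07-fold to 1.26-fold for miR-101c and 1.05-fold to 1.45-fold for miR-30c-5p, against 2.93-fold to 23.5-fold for miR-483-5p. The summed other imprinted miRNAs were highest in mouse 10 at 6 weeks (938 CPM) and in mouse 20 at 12 months (956), but at 6 months in mouse 13 (838) and at 14 months in mouse 24 (716), where mouse 25 was the lowest (525). At 6 weeks miR-335-5p of the Mest locus alone averaged 495 CPM, against a median of 765 for the sum. The sum thus need not reflect the other members, which were not followed singly here.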
